A study of Mus musculus with 24 samples.

Results

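The subunits of the oxidative phosphorylation system that are encoded in the nuclear genome were followed in left ventricular (LV) mRNA of 24-month-old mice. Members were chosen by symbol alone, as Ndufa, Ndufb, Ndufc, Ndufs or Ndufv followed by a digit, Sdha, Sdhb, Sdhc and Sdhd, and every symbol starting with Uqcr, Cox4 to Cox8 or Atp5, which gave 85 of the 24958 named genes. Complex I had 38 members, complex II 4, complex III 8, complex IV 18 and complex V 17. The rule takes in a few genes that are not lasting parts of a complex. Examples are Atp5s, a factor now linked to ATP synthase assembly, and Cox7a2l, a factor linked to the joining of complexes III and IV. Ndufa4, with its paralog Ndufa4l2, is counted under complex I here by its symbol, although the protein is now known as a subunit of complex IV. It leaves out Ndufab1, Cyc1, Cycs and Usmg5, which are described separately, and subunits encoded by mitochondrial DNA were not analysed here.

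The study asked how AngII and the loss of gonadal steroids act on the old heart. The 24 libraries fell into 6 groups of 4: intact females (Ctrl), females ovariectomized at 12 months of age (Ovx), both of these given AngII for the last 4 weeks by osmotic minipump (Ctrl + AngII and Ovx + AngII), intact males (Male Ctrl) and males gonadectomized at 12 months (Male Gx). AngII is a peptide that narrows blood vessels, so that blood pressure goes up. The females were C57BL6/J, and a gonadectomy in these mice removed the ovaries or testes in mid-life and not before puberty. Males did not receive AngII. The paper states that sham surgery was done without a vehicle-filled pump. It also states that running saucers were taken away during AngII treatment, and not whether untreated mice kept theirs. Effects of AngII, of the pump and of less running therefore cannot be told apart here. Each library was a pool of LV RNA from a pair of mice, so that n = 4 counts pools and the error is the spread between pools. The labels do not name the animals in a pool, and since an AngII-treated animal of this age was lost before the end of the protocol, whether every Ctrl + AngII or Ovx + AngII pool came from a separate pair is not settled.

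Oxidative phosphorylation makes most of the ATP of the beating heart. Complex I (NADH dehydrogenase) and complex II (succinate dehydrogenase) pass electrons from NADH and succinate to ubiquinone, complex III passes them on to cytochrome c, and complex IV (cytochrome c oxidase) gives them to oxygen. Complexes I, III and IV pump protons, and complex V (ATP synthase) uses the proton gradient to make ATP. Complex II is also an enzyme of the tricarboxylic acid (TCA) cycle and is the only complex with no subunit encoded in mitochondrial DNA. Transcription factors NRF1, GABP, YY1 and the estrogen-related receptors (ERR) are known to bind the promoters of many of these genes.

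The start regions of 3 members that fell after AngII in both Ctrl and Ovx females are shown here. No window was found for Sdhc and Ndufs1, which also fell in both. The 3 that are shown differ in these motifs. Each sequence is the RefSeq window of 300 bases, from 250 before to 50 after the annotated start, on GRCm38.p6, written 5′ to 3′ in the direction of transcription. Sdha was read from chr13:74350191-74350490 on the minus strand, Uqcrc1 from chr9:108936398-108936697 on the plus strand and Atp5b from chr10:128083057-128083356 on the plus strand. Capitals mark each match, on either strand, to the NRF1-type motif, which is GCGC, then A and any base, then GCGC.
Sdha: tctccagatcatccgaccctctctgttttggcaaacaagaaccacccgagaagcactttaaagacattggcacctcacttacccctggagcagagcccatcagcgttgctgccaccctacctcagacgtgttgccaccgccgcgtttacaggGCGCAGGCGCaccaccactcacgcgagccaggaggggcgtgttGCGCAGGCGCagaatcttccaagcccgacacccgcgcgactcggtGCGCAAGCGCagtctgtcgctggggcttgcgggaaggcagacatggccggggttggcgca
Uqcrc1: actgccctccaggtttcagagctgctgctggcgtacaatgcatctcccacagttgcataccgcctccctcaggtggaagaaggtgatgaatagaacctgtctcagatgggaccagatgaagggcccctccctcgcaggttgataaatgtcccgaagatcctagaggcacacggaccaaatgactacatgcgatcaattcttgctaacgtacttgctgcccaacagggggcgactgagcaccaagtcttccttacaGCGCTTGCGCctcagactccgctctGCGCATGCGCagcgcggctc
Atp5b: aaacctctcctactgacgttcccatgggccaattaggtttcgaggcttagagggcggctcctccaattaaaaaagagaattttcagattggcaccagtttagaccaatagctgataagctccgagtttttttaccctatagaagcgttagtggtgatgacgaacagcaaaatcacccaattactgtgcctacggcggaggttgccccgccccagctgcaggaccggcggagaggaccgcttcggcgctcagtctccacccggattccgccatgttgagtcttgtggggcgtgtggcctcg

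Sdha, the flavoprotein of complex II, held 3 matches and Uqcrc1, a core protein of complex III, held 2. Atp5b, the catalytic β subunit of ATP synthase, held no NRF1-type match and no match to AAGGTCA (ERR), AAGATGGCG (YY1) or CCGGAAGT (GABP), and held GGGCGG (SP1-type) 2 times. A window was found for 66 of the 85 members (71 windows). The NRF1-type motif was present in 25.4% of these windows and in 4.60% of all 32851 RefSeq windows. The shares were 11.3% and 4.72% for AAGGTCA, 9.86% and 1.40% for AAGATGGCG, 7.04% and 3.89% for CCGGAAGT, and 38.0% and 35.7% for GGGCGG. By complex, the NRF1-type motif was in 8 of 34 windows of complex I and 2 of 3 of complex II. It was in 1 of 5 of complex III, 1 of 13 of complex IV and 6 of 16 of complex V. The 32851 windows were not matched to the members for base composition. These motifs were searched on both strands, each for itself, and a match is a run of letters and not a measured binding site.

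Levels are given as normalized values put on one scale over the 24 libraries by a median-of-ratios factor. Together the 85 members took 4.19% to 5.47% of a library's summed values. Levels per kilobase used the longest protein-coding transcript marked as principal, or the longest protein-coding one where none was marked. The mean per kilobase over the 24 libraries was highest for Atp5b (64875) and Cox6a2, the muscle isoform of a cytochrome c oxidase subunit (52185). Atp5a1, the α subunit of ATP synthase (40616), and Cox4i1, the common isoform of COX4 (40594), came next. The median per kilobase was 6843 in complex I, 10365 in complex II, 13808 in complex III, 15921 in complex IV and 14811 in complex V. Use of the longest such transcript understates genes that also have much shorter ones, such as Atp5g1. Of the members, 2 did not reach the filter (a mean value of at least 10): Cox8c, a testis isoform, was listed at 0 in every library, and Cox7b2 had a mean of 3.04. Cox6b2, another testis isoform, passed only narrowly at a mean of 20.6, which left 83 members tested. Ndufb4c and Ndufs5 have near-identical copies elsewhere in the genome, and their values are uncertain.

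The libraries differed in depth. Relative to the median library, depth ran from 0.45 in Ctrl + AngII library 40 to 1.87 in Ctrl library 38. For pairs of libraries of 1 group, the typical (median) log2 difference over genes was 0.128 to 0.212, and no library was a duplicate of another library of its group. The cardiomyocyte markers, which should lead in LV tissue, summed to between 2227371 and 2668076 over the 16 female libraries. Ctrl library 37 and Ctrl + AngII library 40 stood farthest apart for the members, as the highest Ctrl and the lowest Ctrl + AngII library, so values without them are given where they matter.

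With AngII in Ctrl females, mRNA of subunits in every complex was lower, by small amounts. Of the 83 members tested, 15 fell and 0 rose at an adjusted p of at most 0.05 (limma), which is 18.1% of members fallen, whereas 3.37% of all 13810 genes fell and 4.8% rose. At an unadjusted p under 0.05 the count was 53 (63.9% of members), against 21.6% of all genes. All 53 were below 0, against 10.2% of all genes. The log2 fold change was below 0 for 79 of the 83, against 51% of all genes. The median over the members was −0.17, a decrease of 11.3%, and over all genes −0.01. None of the members passed the additional 2-fold limit that the study used, which 1.19% of all genes did. The medians by complex were −0.17 in complex I, −0.23 in complex II, −0.18 in complex III, −0.16 in complex IV and −0.18 in complex V. The calls were 4 of 38, 3 of 4, 1 of 8, 3 of 16 and 4 of 17 in the same order.

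AngII in Ovx females, compared in libraries that are all different from those of Ctrl females, gave the same direction. Here 10 members fell and 0 rose (12% of 83 fallen), while 5.08% of all genes fell and 5.09% rose. At an unadjusted p under 0.05 the count was 27 (32.5% of members), against 25.2% of all genes. Of the 27, 26 (31.3% of members) were below 0, against 12.3% of all genes. The log2 fold change was below 0 for 76 members, against 48.2% of all genes, and the median was −0.12, against 0.01. None passed the 2-fold limit, which 1.12% of all genes did. The medians were −0.11 in complex I, −0.23 in complex II, −0.11 in complex III, −0.13 in complex IV and −0.12 in complex V, and the calls 3, 2, 2, 1 and 2. The number of members called in both comparisons was 5: Sdha, Sdhc, Uqcrc1, Ndufs1 and Atp5b. Both comparisons came from the same fit and share its estimate of the spread, so their calls are not independent.

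**Figure D1:**
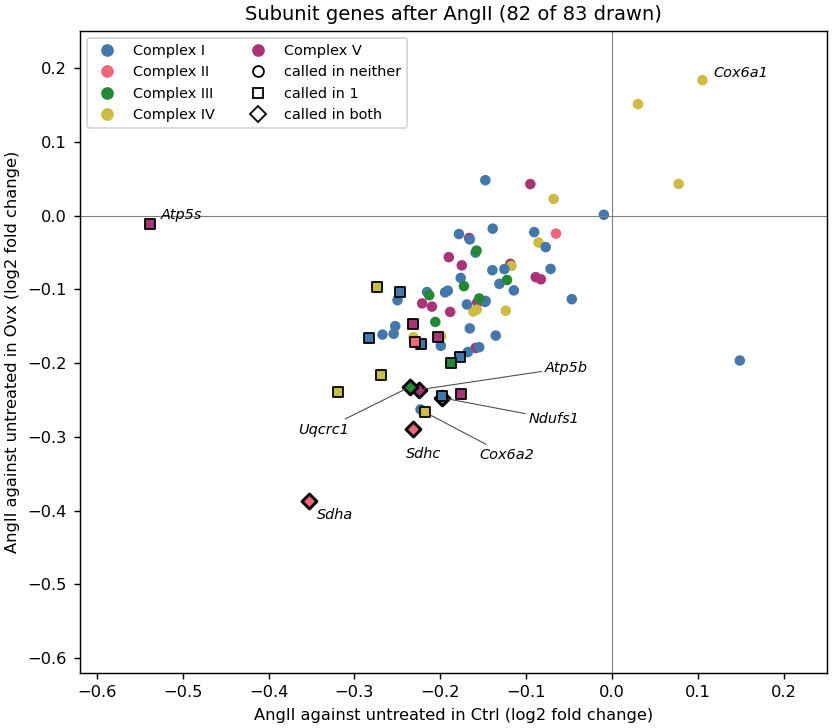
Log2 fold change after AngII in Ctrl females (x axis) and in Ovx females (y axis), 1 point per member, coloured by complex. Of the 83 members tested 82 are drawn, most lie below 0 on both axes, and Sdha is the lowest of the 5 called in both. The low-level Cox6b2 falls outside the axes.

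For 18 members in Ctrl and 18 in Ovx (21.7% each), all 4 treated libraries lay below all 4 untreated ones. The same held for 5.92% and 8.83% of all genes. For most members the libraries overlapped. For each library, the median deviation of the members from their own 24-library mean was taken on the log2 scale. It ran from −0.06 to 0.18 in Ctrl, from −0.23 to −0.02 in Ctrl + AngII, from −0.12 to 0.05 in Ovx and from −0.18 to −0.05 in Ovx + AngII. Ctrl library 39 and Ovx library 43 lay within the range of their AngII-treated counterparts. Among the complexes, only complex II, with 4 genes, had libraries that did not overlap. Its values were −0.01 to 0.23 in Ctrl against −0.28 to −0.09 in Ctrl + AngII. They were −0.04 to 0.14 in Ovx against −0.23 to −0.14 in Ovx + AngII. The same measure for the TCA cycle enzymes, without complex II, did not overlap either. For these enzymes it was −0.04 to 0.21 in Ctrl against −0.18 to −0.10 in Ctrl + AngII. In Ovx it was −0.02 to 0.09, against −0.17 to −0.13 in Ovx + AngII.

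**Figure D2:**
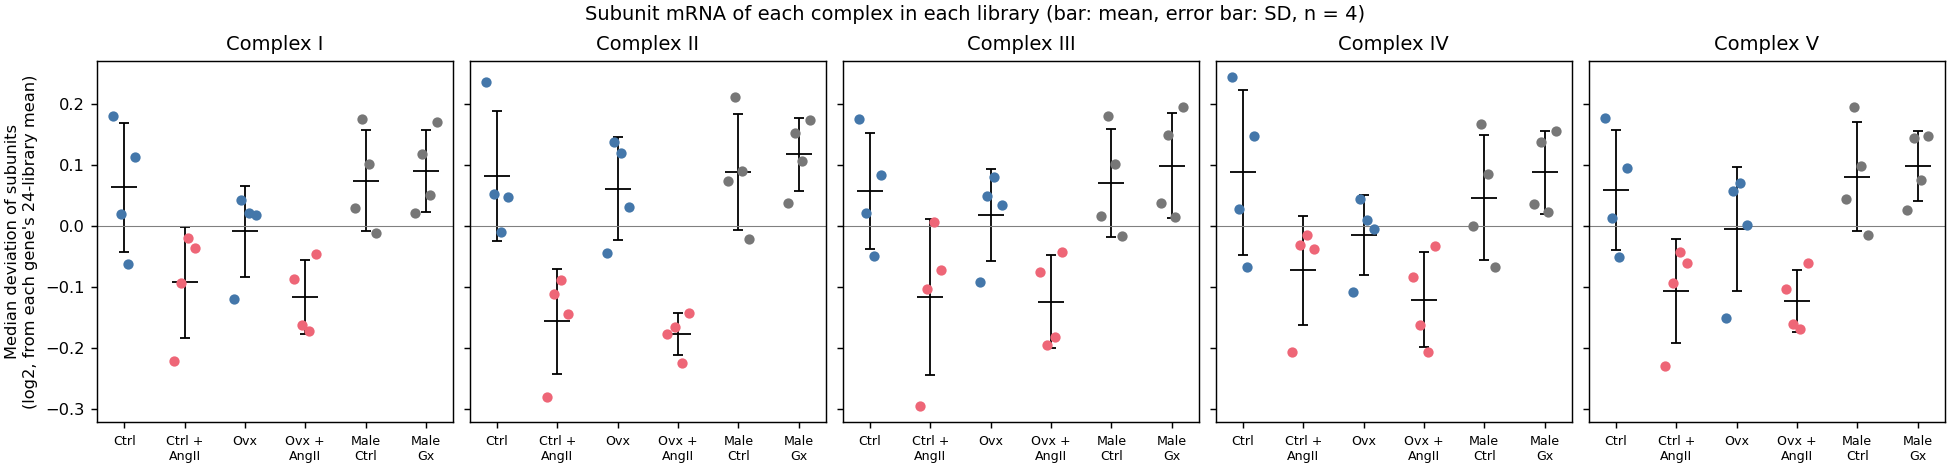
Median deviation of the subunits of each complex in each library (log2, from each gene's mean over 24 libraries), with 1 point per library and the mean and SD of 4 libraries in each group. Treated and untreated female libraries overlap in complexes I, III, IV and V, and not in complex II.

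The count of calls in Ctrl females rested on few libraries. It was 3 without Ctrl library 37 and 3 without Ctrl + AngII library 40, 6 without library 51, 7 without 52, 8 without 38 and 30 without 39, and with both 37 and 40 left out 2 members were called and the median was −0.082. In Ovx females the count was 4 without library 44, 4 without 45, 6 without 47 and 6 without 48.

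Complex II showed the largest median decrease of the complexes in both comparisons. Sdha (chr13:74322254-74350280), which carries the FAD that oxidizes succinate, was 44986, 40999, 37779 and 38561 in Ctrl libraries 37, 38, 39 and 51. It was 29829, 32625, 32508 and 31965 in Ctrl + AngII libraries 40, 41, 42 and 52. The lowest Ctrl library was thus above the highest treated one. The values were 39027, 42430, 43233 and 38430 in Ovx libraries 43, 44, 45 and 53, and 32224, 31752, 29503 and 31199 in Ovx + AngII libraries 46, 47, 48 and 54, again without overlap. The group means were 40581 ± 3241 (SD, n = 4) in Ctrl and 31732 ± 1301 in Ctrl + AngII. The log2 fold change was −0.35 ± 0.06 (SE, limma adjusted p = 0.0014), a decrease of 21.7%. In Ovx females it was −0.39 ± 0.06 (limma adjusted p = 5.6e-04), a decrease of 23.5%. Sdha kept its call in every one of 16 fits that left out 1 library, in both comparisons, and the highest adjusted p over 30 alternative settings was 0.017 in Ctrl and 0.0089 in Ovx.

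Sdhc (chr1:171127165-171150603), a membrane anchor of complex II, was 12246, 11180, 10913 and 11000 in the same 4 Ctrl libraries, and 9183, 9937, 9944 and 9525 after AngII. It was 10196, 11950, 11948 and 10781 in Ovx and 9439, 8883, 9111 and 9190 in Ovx + AngII. Neither pair of groups overlapped. The log2 fold changes were −0.23 ± 0.06 (limma adjusted p = 0.016) in Ctrl and −0.29 ± 0.06 (0.0029) in Ovx. The call in Ctrl was lost without library 37 or library 40, and that in Ovx held without any 1 library. Sdhb, the iron-sulfur subunit that takes electrons from Sdha, fell in Ctrl (18773 ± 1892 to 15970 ± 920, −0.23 ± 0.07, adjusted p = 0.042), and in Ovx, where its libraries did not overlap either, its log2 fold change was −0.17 ± 0.07 (adjusted p = 0.12). Its call in Ctrl held in 6 of 16 fits that left out 1 library. Sdhd, the other membrane anchor, was the member of complex II with the smallest difference, at −0.07 ± 0.07 in Ctrl and −0.02 ± 0.07 in Ovx, and neither passed the test.

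**Figure D3:**
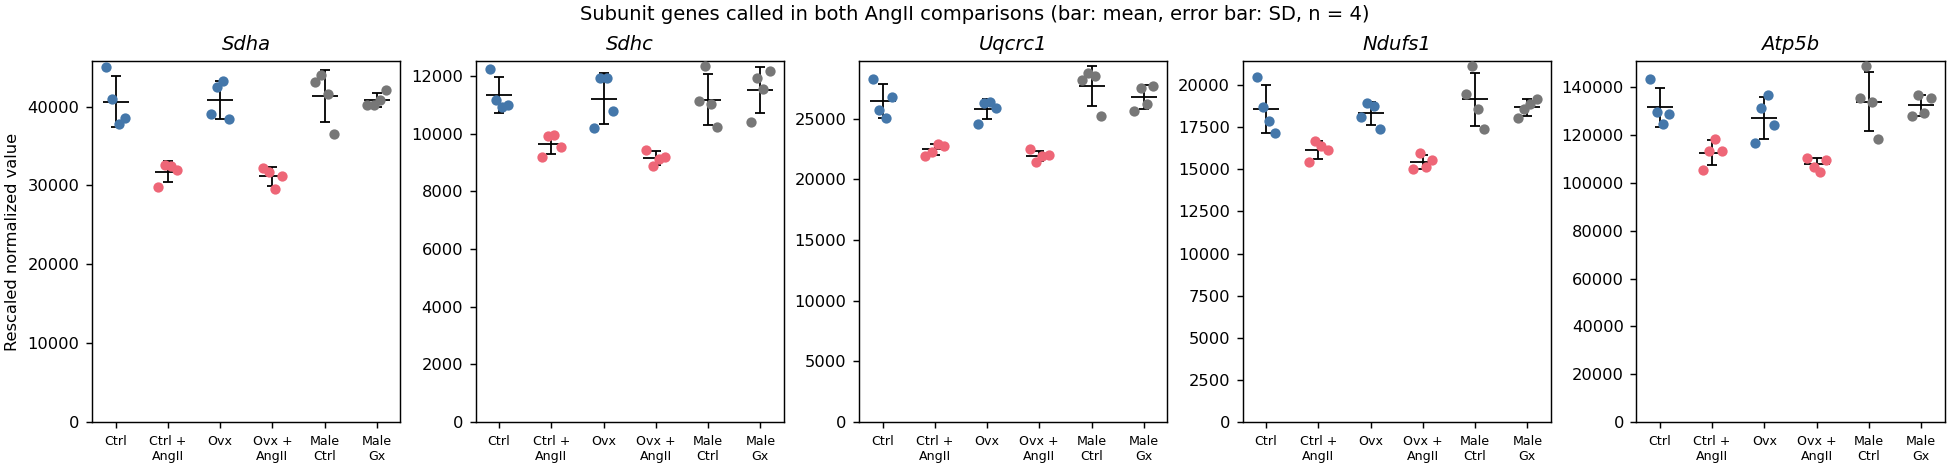
Rescaled normalized values of the 5 members called in both AngII comparisons, with 1 point per library and the mean and SD of 4 libraries in each group, on axes that start at 0. AngII-treated libraries lie below the untreated ones of the same ovarian state for each gene, and the male libraries lie among the untreated female ones or near them.

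In complex III, Uqcrc1 (chr9:108936633-108949623), a core protein on the matrix side, fell by nearly the same amount in both backgrounds. It was 28291, 25737, 25063 and 26776 in Ctrl and 21916, 22297, 22891 and 22778 in Ctrl + AngII. In Ovx it was 24611, 26288, 26417 and 25893, and in Ovx + AngII 22471, 21455, 21919 and 22013. All 4 treated libraries were below all 4 untreated ones in each case. The log2 fold change was −0.23 ± 0.05 in Ctrl and −0.23 ± 0.05 in Ovx, each at a limma adjusted p of 0.0045, and both calls held without any 1 library. Over the 30 alternatives the adjusted p reached 0.061 and 0.059. Uqcrc2, the partner core protein, was called in Ovx (−0.20 ± 0.06, adjusted p = 0.038, held in 9 of 16 such fits) and had −0.19 ± 0.06 (adjusted p = 0.06) in Ctrl, where its groups did not overlap. The small subunits Uqcr10 (−0.16 and −0.05) and Uqcrh (−0.12 and −0.09) did not pass in Ctrl or Ovx.

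In complex I, Ndufs1 (chr1:63143596-63176833), the largest subunit, which carries iron-sulfur clusters, was 20476, 18698, 17887 and 17184 in Ctrl and 15447, 16656, 16362 and 16161 in Ctrl + AngII. In Ovx it was 18118, 18964, 18786 and 17410, and 15040, 15988, 15128 and 15563 in Ovx + AngII. The groups did not overlap. The log2 fold changes were −0.20 ± 0.05 (limma adjusted p = 0.031) and −0.25 ± 0.05 (0.0067). The call in Ovx held without any 1 library, whereas the call in Ctrl was lost without library 37, 38, 40, 42 or 52.

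Ndufv2, an iron-sulfur subunit next to the NADH site, was 14356, 13409, 13683 and 14506 in Ctrl and 10507, 11089, 11946 and 12541 in Ctrl + AngII, without overlap (−0.28 ± 0.07, limma adjusted p = 0.01, held without any 1 library). In Ovx its groups overlapped (−0.17 ± 0.07, adjusted p = 0.12). Ndufv3 and Ndufs4 were also called in Ctrl and Ndufa10 in Ovx, and these are named after their values were seen. Ndufa4l2, a low-level paralog of Ndufa4, had the highest log2 fold change in Ctrl among the members with Nduf symbols (0.15 ± 0.10, and −0.13 with the values as deposited), and it did not pass the test there or in Ovx (−0.20 ± 0.10).

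In complex V, Atp5b (chr10:128083273-128090391) was 143579, 129771, 124681 and 128656 in Ctrl and 105444, 113339, 118179 and 113334 in Ctrl + AngII. In Ovx it was 116546, 131174, 136827 and 124384, and in Ovx + AngII 110538, 106739, 104468 and 109624. The groups did not overlap, although Ovx library 43 came close to the treated libraries. The log2 fold changes were −0.23 ± 0.07 (limma adjusted p = 0.044) and −0.24 ± 0.07 (0.03). These calls were near the threshold: that in Ctrl held in 5 of 16 fits without 1 library and that in Ovx in 11, and the adjusted p over 30 alternatives reached 0.48 and 0.14.

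Atp5a1, which forms the catalytic ring with Atp5b, was 104265 ± 5912 in Ctrl and 92248 ± 4756 in Ctrl + AngII (−0.18 ± 0.06, limma adjusted p = 0.096). In Ovx it fell from 104358 ± 5823 to 88137 ± 1876 (−0.24 ± 0.06, adjusted p = 0.018), a call lost without library 44 or 45. Of the 3 genes for the identical c-ring subunit, Atp5g3 fell in Ctrl (−0.23 ± 0.07, adjusted p = 0.042), and was −0.15 ± 0.07 (adjusted p = 0.18) in Ovx. Its call in Ctrl held in 7 of 16 fits without 1 library. Atp5g1 (−0.19 and −0.06) and Atp5g2 (−0.17 and −0.07) did not pass in either. Atp5f1, the b subunit of the stalk, was called in Ctrl and is named after its values were seen.

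Atp5s had the smallest p of all members for a difference between Ctrl and Ovx in the AngII effect. It was 646, 530, 489 and 550 in Ctrl and 287, 388, 459 and 404 in Ctrl + AngII, and the groups did not overlap (−0.54 ± 0.14, limma adjusted p = 0.018). It was 462, 481, 548 and 448 in Ovx and 396, 543, 438 and 560 in Ovx + AngII, with overlap (−0.01 ± 0.14, adjusted p = 0.97). The difference between the 2 effects, 0.53 ± 0.19, did not pass the test over all genes (unadjusted p = 0.013, adjusted p = 0.35). The call in Ctrl was lost without library 37 or 40.

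Complex IV held members on both sides of 0. Several of its subunits exist in an isoform of heart and skeletal muscle and an isoform found in most other tissues. Among the muscle isoforms, Cox7a1 was 11946, 10578, 10043 and 12311 in Ctrl and 7913, 10003, 8873 and 9193 in Ctrl + AngII (−0.32 ± 0.09, limma adjusted p = 0.029), with a narrow gap between the groups, and in Ovx it was −0.24 ± 0.09 (adjusted p = 0.088). Cox8b fell in Ctrl (9808 ± 955 to 8099 ± 579, −0.27 ± 0.08, adjusted p = 0.042), with 1 of the treated libraries above the lowest Ctrl library, and was −0.10 ± 0.08 in Ovx. Cox6a2 was called in Ovx (36484 ± 859 to 30443 ± 3123, −0.27 ± 0.08, adjusted p = 0.048) and was −0.22 ± 0.08 in Ctrl (adjusted p = 0.12). These calls held in 11, 8 and 3 of 16 fits that left out 1 library. Cox7b, which has no separate muscle isoform, fell in Ctrl (−0.27 ± 0.08, adjusted p = 0.035, held in 10 of 16), with −0.22 ± 0.08 (adjusted p = 0.077) in Ovx.

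Among the isoforms other than the muscle ones, 3 had log2 fold changes above 0 in both comparisons. Of these, Cox6a1 and Cox8a are partners of a muscle isoform. Cox4i2 is not, as its partner Cox4i1 is the common isoform of COX4. Cox6a1 had 0.11 ± 0.08 in Ctrl (limma adjusted p = 0.47) and 0.18 ± 0.08 in Ovx (0.15), Cox8a 0.03 ± 0.07 and 0.15 ± 0.07, and Cox4i2, a low-level isoform of COX4, 0.08 ± 0.11 and 0.04 ± 0.11. None of these passed the test. The signs in Ctrl depended on the scale for all 3: with the values as deposited they were −0.17 for Cox6a1, −0.25 for Cox8a and −0.20 for Cox4i2, and Cox4i2 was then −0.04 in Ovx. On the common scale, leaving out 1 library also turned the sign of Cox8a in Ctrl (−0.03 without library 39) and that of Cox4i2 in Ovx (−0.022 without library 44, and below 0 without 46). Cox7a2, the common partner of Cox7a1, was −0.16 ± 0.06 and −0.13 ± 0.06, and Cox4i1 was −0.20 ± 0.07 and −0.16 ± 0.07. Cox6b2 was listed at 0 in library 40, and its values, from 20.4 to 38.1 in Ctrl and from 0 to 22.2 in Ctrl + AngII, overlapped.

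The ratio of 2 isoforms within a library does not depend on how libraries are scaled. The log2 ratio of Cox6a1 to Cox6a2 was −4.62, −4.49, −4.25 and −4.31 in Ctrl and −3.94, −4.20, −4.16 and −4.07 in Ctrl + AngII. It was −4.47, −4.52, −4.56 and −4.42 in Ovx and −4.19, −4.12, −3.69 and −4.18 in Ovx + AngII. Every treated library was above every untreated one, by 0.32 and 0.45 on average. The log2 ratio of Cox8a to Cox8b was −2.24, −2.07, −2.11 and −2.01 in Ctrl and −1.78, −1.79, −1.88 and −1.78 in Ctrl + AngII, and it was −2.07, −2.11, −2.18 and −2.03 in Ovx and −1.99, −1.78, −1.65 and −1.97 in Ovx + AngII. Treated libraries were again all above untreated ones, by 0.30 and 0.25. The other 3 ratios overlapped in both comparisons. Cox7a2 over Cox7a1 was higher by 0.16 in Ctrl and by 0.11 in Ovx, the latter 0.064 without library 47 and 0.18 without library 54. Cox4i2 over Cox4i1 was higher by 0.28 and 0.21, the latter 0.11 without library 44. Ndufa4l2 over Ndufa4 was higher by 0.34 in Ctrl, whereas in Ovx the difference was −0.09, and from −0.18 (without library 44) to 0.022 (without library 43) when 1 library was left out. For each of the 4 ratios without overlap, the two-sided exact permutation p was 0.029, the smallest that 4 libraries against 4 allow. With 30 ratio tests made, 5 had an unadjusted p of at most 0.05, the smallest adjusted p was 0.17, and none passed after adjustment.

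**Figure D4:**
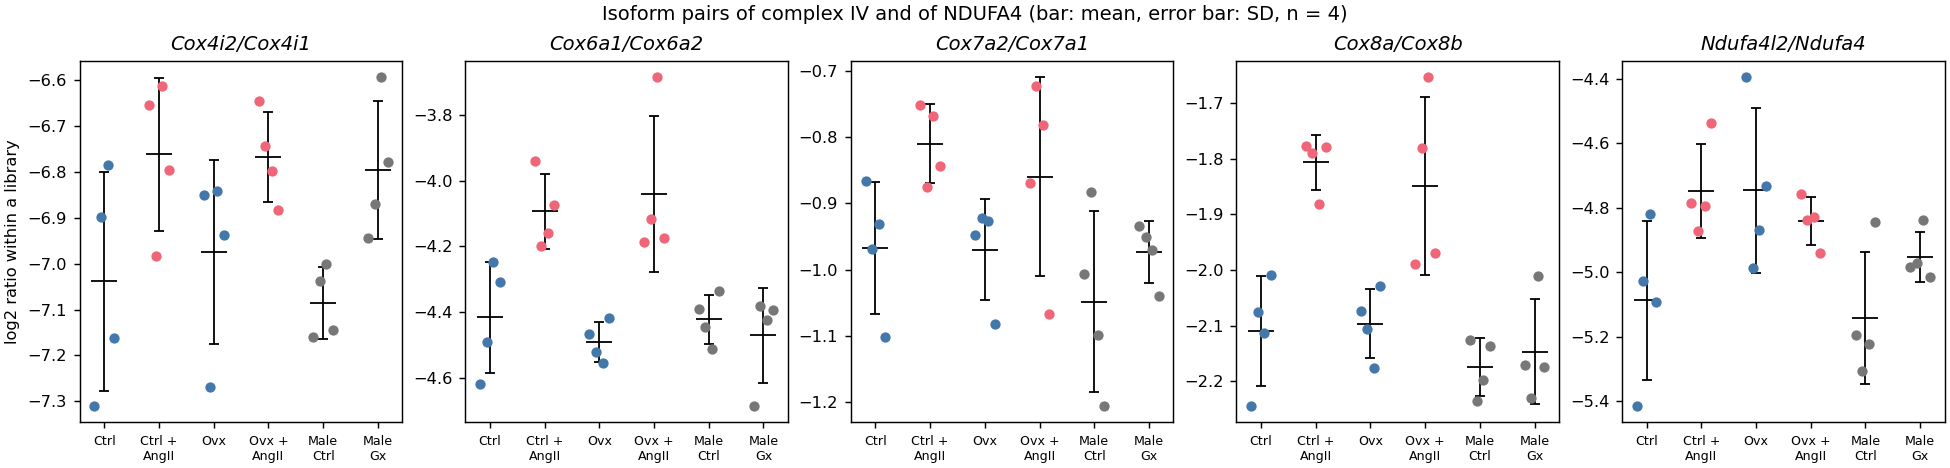
Log2 ratio of the isoform pairs within each library, with 1 point per library and the mean and SD of 4 libraries in each group (each panel has its own axis range). Cox6a1/Cox6a2 and Cox8a/Cox8b were higher in all AngII-treated female libraries than in untreated ones of the same ovarian state.

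The non-muscle isoforms are also made by the other cells of the heart, and markers of such cells moved with AngII. The 5 markers of activated fibroblasts (Postn, Cilp, Comp, Thbs4 and Ltbp2) all rose in both comparisons, and their summed values were 1816 to 3403 in Ctrl, 12027 to 22512 in Ctrl + AngII, 3100 to 4154 in Ovx and 13348 to 15634 in Ovx + AngII. Of 9 fibroblast markers 5 rose in Ctrl and 3 in Ovx, and their sums were 59737 to 74335 in Ctrl, 78915 to 96141 in Ctrl + AngII, 68887 to 76080 in Ovx and 81266 to 87751 in Ovx + AngII. Of 8 pericyte and smooth muscle markers, 4 rose and 1 fell in Ctrl (median 0.22) and 1 fell in Ovx (median −0.34). Abcc9 was the one that fell in each, while Cnn1 rose in Ctrl (1.24 ± 0.27) and was −0.57 ± 0.27 in Ovx. Their sums overlapped between treated and untreated libraries in both comparisons, at 36653 to 39753 in Ctrl + AngII and 32633 to 39877 in Ovx + AngII. The 7 macrophage markers had medians of 0.27 and 0.19, with C1qa called in Ctrl (0.44 ± 0.13), and the 8 endothelial markers had medians of −0.0025 and 0.05. Of the 12 cardiomyocyte markers, 2 rose (Actn2 and Mybpc3) and 2 fell (Tnni3 and Pln) in Ctrl, and the same 2 fell in Ovx, with list medians of −0.02 and −0.06. Cardiomyocyte sums overlapped: 2230872 to 2668076 in Ctrl, 2333923 to 2499234 in Ctrl + AngII, 2363922 to 2448719 in Ovx and 2227371 to 2372489 in Ovx + AngII, the last pair with a small overlap. The part of cell makeup in the subunit values was not tested, and in bulk tissue fewer cells of a type and less RNA per cell cannot be told apart.

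The TCA cycle enzymes (14 genes, without complex II) had medians of −0.22 in Ctrl and −0.19 in Ovx, and 7 and 6 of them fell, with none that rose. Idh3b (−0.31 and −0.25), Suclg1 (−0.24 and −0.23), Suclg2 (−0.28 and −0.34) and Fh1 (−0.28 and −0.25), which act on isocitrate, succinyl-CoA and fumarate, fell in both. The 4 electron transport or ATP synthase genes outside the symbol rule had medians of −0.19 and −0.12, and Ndufab1, the acyl carrier protein of complex I, fell in Ctrl (−0.23 ± 0.06, limma adjusted p = 0.031).

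Assembly factors help to build the complexes without staying in them. The 4 genes listed for complex V had medians of −0.17 and −0.11, with all 4 below 0 in both comparisons. They include Atpif1 (−0.03 and −0.04), which encodes an inhibitor of ATP synthase and not an assembly factor. The assembly factors among them were Atpaf1 (−0.12 and −0.08), Atpaf2 (−0.24 and −0.13) and Tmem70 (−0.22 and −0.18). The 15 complex I assembly factors had medians of −0.12 in Ctrl and 0.02 in Ovx, with 0 called by limma (3 and 1 at an unadjusted p under 0.05), and the 21 complex IV factors tested −0.05 and 0.06 with 1 gene that rose in both, Cox19 (0.40 and 0.52), a copper-handling protein. The 4 complex II factors had medians of 0.04 and 0.07 and the 6 complex III factors −0.08 and 0.01. Uqcc1 of complex III and Tmem70 of complex V fell in Ctrl. Of 16 regulators of mitochondrial genes 0 were called by limma in Ctrl (4 at an unadjusted p under 0.05, median −0.11), and Pprc1, a PGC-1-related coactivator, rose in Ovx (0.28 ± 0.07, adjusted p = 0.02, list median 0.00). Ppargc1a, which encodes PGC-1α, was −0.31 ± 0.11 in Ctrl (adjusted p = 0.082) and 0.00 ± 0.11 in Ovx. Mitochondrial ribosomal protein genes had medians of −0.09 and −0.01, and cytosolic ones −0.06 and 0.01.

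**Figure D5:**
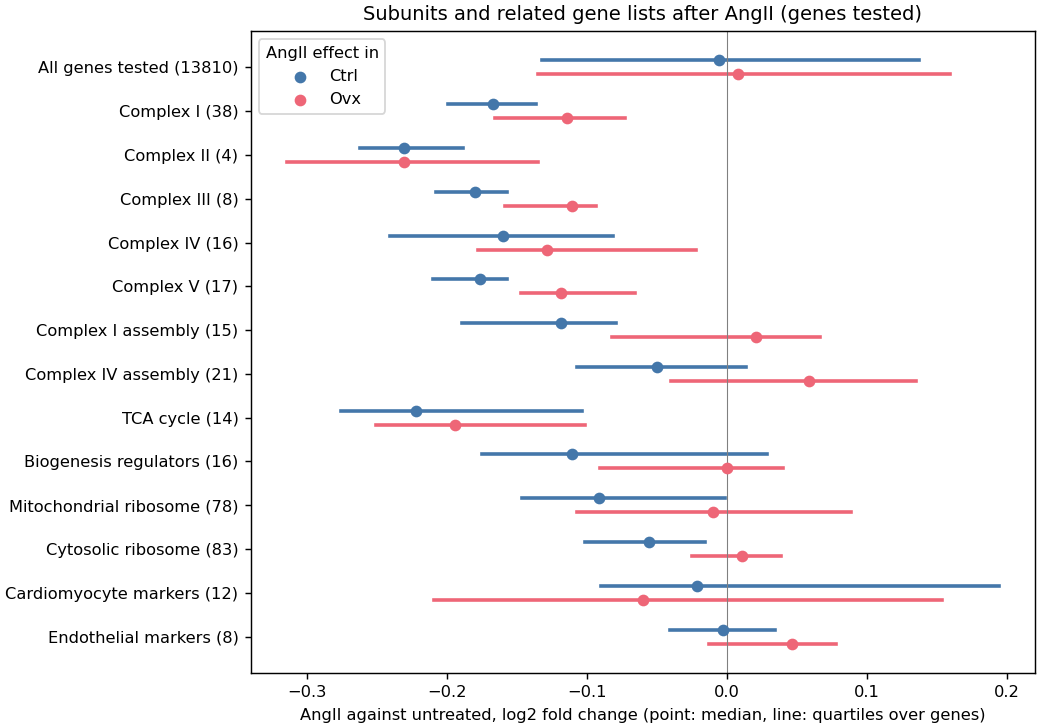
Median log2 fold change (points) and quartiles over genes (lines) after AngII in Ctrl and in Ovx females, with the number of genes tested in brackets. All 5 complexes and the TCA cycle lie below 0 in both comparisons.

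The members that were called had longer transcripts than those that were not. Called members had a median transcript length of 1604 bases in Ctrl and 1968 in Ovx, against 732.5 and 733 for members not called, and the 5 called in both ranged from 1653 to 3171. With the members split by length into 28, 28 and 25, the medians were −0.16, −0.17 and −0.20 from shortest to longest in Ctrl and −0.09, −0.12 and −0.18 in Ovx, and 10 of the 15 calls and 9 of the 10 calls were among the 25 longest. The standard errors of called members were smaller, with medians of 0.0669 and 0.0608 against 0.0731 and 0.0732. Called members also had higher levels, with medians of 15990 in Ctrl and 24218 in Ovx, against 7300 and 7247 for members not called. The part of length, level or precision in which members were called was not tested.

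The AngII effects in Ctrl and Ovx females were compared directly as an interaction. By limma 0 of 83 members passed (2 at an unadjusted p under 0.05, against 10.4% of all genes), where 0.0579% of all genes were called, and the median difference was 0.05. Leaving out 1 library moved it to between 0.0051 (without Ctrl + AngII library 40) and 0.091 (without Ctrl library 39). For Sdha it was −0.03 ± 0.09, for Sdhc −0.06 ± 0.08 and for Uqcrc1 0.00 ± 0.07. A member called in one background only was therefore not shown to differ between them.

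Ovx without AngII gave 0 members called by limma, where 0.109% of all genes were called. At an unadjusted p under 0.05 there were 10 (12% of members), against 12.4% of all genes. The median was −0.07, with 75 of 83 members below 0, against 51.2% of all genes. It was −0.039 without Ovx library 43, −0.041 without Ctrl library 37, and −0.13 without Ctrl library 39, when 1 member was called. The median was −0.01 in complex II and −0.10 in complex IV. The log2 fold change of Sdha was 0.01 ± 0.06 (adjusted p = 0.98). Under AngII, Ovx against Ctrl had 0 calls (1 at an unadjusted p under 0.05, against 11.5% of all genes), where 1.01% of all genes were called, and a median of −0.03 (−0.073 without Ctrl + AngII library 40 and −0.0029 without library 42). These contrasts use the same libraries as those for AngII and are not independent of them.

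Gonadectomy in males had 0 members called by limma (2 at an unadjusted p under 0.05, against 8.54% of all genes), where 0.0797% of all genes were called, and a median of 0.02 (from −0.0079 to 0.044 without 1 library). Sdha was 43065, 43966, 41602 and 36560 in Male Ctrl libraries 31, 32, 33 and 49, and 40247, 40196, 40820 and 42105 in Male Gx libraries 34, 35, 36 and 50, with overlap (−0.01 ± 0.06). Cox4i2 was 215, 280, 257 and 220 in Male Ctrl and 263, 301, 353 and 306 in Male Gx, with overlap (0.33 ± 0.11, adjusted p = 0.4), although its ratio to Cox4i1 did not overlap (higher by 0.29, exact permutation p = 0.029, adjusted p = 0.17). Of the members, only Atp5s had all Male Gx libraries below all Male Ctrl ones (574 ± 8.8 to 498 ± 7.6, adjusted p = 0.65), where 2.67% of all genes did so.

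Male Ctrl against Ctrl females had 0 calls by limma (1 at an unadjusted p under 0.05, against 12.9% of all genes), where 1.2% of all genes were called, and a median of −0.0014 (from −0.039 to 0.042 without 1 library). Ndufa9 (0.17 ± 0.06, limma adjusted p = 0.22) and Sdhd (0.08 ± 0.06, adjusted p = 0.66) had all 4 male libraries above all 4 female ones, 2 members of 83, where 3.78% of all genes did. The difference between the sexes in the gonadectomy effect had 0 calls (4 at an unadjusted p under 0.05, against 6.07% of all genes), where 0.00725% of all genes were called, and a median of 0.10 (0.053 without Ovx library 43 or Ctrl library 37, 0.058 without Male Ctrl library 49, and 0.13 without Ctrl library 39). On the values as deposited, all genes of Male Ctrl together were shifted by −0.36 against Ctrl females on the log2 scale. On these values 81 members were called, among 9332 genes called in all.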

How the data were processed

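LV mRNA of 24 libraries was prepared with a stranded kit. The authors used BaseSpace, with STAR for alignment to mouse mm10 and DESeq2 for normalization. Salmon is also listed by the submitters in their processing notes, and no versions are given for it or for STAR. The deposited values are a normalized signal per gene that is never negative and not whole, and DESeq2 was not run again. Whole reads could not be recovered: 15.8% to 42.7% of low values were whole multiples of the step of 1 read, with a tolerance of 0.02. Depth is therefore known only relative to the median library, and no interval that needs counts is given. All value columns had a sample (0 without one). Left out were 14 lines named by dates (0.0552% of the summed values) and 1 line without a name.

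A median-of-ratios factor per library, taken over the 24, brought the values to a common level, since the groups differed in overall level by up to −0.36 on the log2 scale. Tests used limma 3.58.1 (R 4.3.3, eBayes with trend) after a log2 transform with a pseudocount of 1. Genes entered with a mean of 10 or more, and p-values were adjusted by Benjamini-Hochberg over all genes. A log2 fold change on this scale understates the change of low genes. The 16 female libraries were fitted together (13810 genes), and all 24 for comparisons with males (13796 genes). The threshold for a call was an adjusted p of 0.05, without the study's limit on the fold change (1 on the log2 scale), which is given beside it. Isoform ratios were compared by two-sided exact permutation over the 70 labellings of 4 and 4 libraries. Fits were tested on data simulated with independent noise for each gene. That simulation held no variation shared by the genes of a library, so it does not cover counts that rest on few libraries.

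Named were up to 6 called members per comparison and direction with the largest change, the 2 most abundant members of each complex, the fixed isoform sets, and the highest and lowest change in each complex. Members and lists were chosen with earlier results of these data known. Gene positions and transcript lengths are from GENCODE vM21 (GRCm38) and start regions from RefSeq (GRCm38.p6). The length is that of the longest protein-coding transcript marked as principal, or the longest protein-coding one where none was marked. Alternatives were another scaling, pseudocount, filter, variance trend, library weights, choice of libraries and leaving out each library. Library numbers 49 to 54 (1 per group) stand apart from 31 to 48 in the labels, which do not call them a batch. A member that the naming rule covers is not reported here by itself.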

Additional observations from a re-analysis of the deposited data

Results flagged for a closer look

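In 270 sets of 4 libraries, made of the members named, the complex medians and the isoform ratios in the 6 groups, 11 had a highest or lowest library far from the other 3. Chance gives about 1 in 20, or 13.5, which is only a rough guide because the sets share members and libraries. Of the 11, Ctrl + AngII library 40, the shallowest of all, was the low one in 3: the complex IV median deviation was −0.21 (others on average −0.03), Atp5g2 was 3860 (4589) and Sdhd 7789 (9409). The complex I median deviation was −0.12 in Ovx library 43, against 0.03 on average in the other 3. Uqcrc2 was 23547 in Ctrl library 37, against 21451. In Male Ctrl, Cox6b1 was 15170 in library 32 (others 13403) and Uqcrc1 was 25236 in library 49 (28527).

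The log2 ratio of Cox6a1 to Cox6a2 was −3.69 in Ovx + AngII library 48 (others −4.16) and −4.69 in Male Gx library 34 (−4.40). The log2 ratio of Cox7a2 to Cox7a1 was −1.08 in Ovx library 53 (−0.93), and that of Cox8a to Cox8b was −1.88 in Ctrl + AngII library 42 (−1.78).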

How the results depend on the processing

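No paired analysis was possible because each library has a number of its own and the groups share none. Leaving out 1 library at a time, the number of members called ranged from 3 to 30 for AngII in Ctrl, from 4 to 13 for AngII in Ovx and from 0 to 1 for Ovx without AngII. The medians ranged from −0.21 to −0.12, from −0.15 to −0.09 and from −0.13 to −0.04.

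On the values as deposited, the members called were 79 (AngII in Ctrl), 32 (AngII in Ovx), 8 (interaction), 1 (Ovx without AngII), 81 (Male Ctrl against Ctrl) and 3 (sex difference in gonadectomy). Over all genes tested, the counts called were 6986, 2142, 1036, 193, 9332 and 108 in the same order. The medians of the members were then −0.45, −0.20, 0.24, −0.16, −0.36 and 0.26, and 0.082 for Ovx under AngII and 0.10 for gonadectomy in males. On these values all genes together were shifted by −0.28 for AngII in Ctrl and by −0.08 in Ovx. As deposited, Cox8a changed sign for AngII in Ctrl to a called decrease (−0.25). Cox6a1 (−0.17), Cox4i2 (−0.20) and Ndufa4l2 (−0.13) also changed sign there, uncalled on both scales.

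For AngII in Ctrl and in Ovx, the members called were 26 and 18 with quantile normalization, 6 and 5 with every gene of a mean above 0, and 2 and 3 without libraries 49 to 54, which leaves 3 libraries a group and medians of −0.18 and −0.13. With that set as a term 14 and 10 were called. Without a variance trend 6 were called in Ctrl, and with library weights 22 in Ovx. Over all genes, the main fit called 1129 in Ctrl and 1405 in Ovx. These counts were 1144 and 1534 with quantile normalization, and 927 and 1206 with every gene of a mean above 0. With the set as a term they were 1109 and 1391. In Ctrl 576 genes were called without libraries 49 to 54 and 858 without a variance trend. In Ovx 2469 were called with library weights. Without libraries 37 and 40, an alternative chosen after seeing the data, 2 and 16 were called, the median in Ctrl was −0.082 and the median interaction −0.038. Without 39 and 42, chosen in the same way, 30 were called in Ctrl and 1 for Ovx without AngII. The cause of these differences was not tested. Depth limits the low members most: Cox6b2 reached a listed 0 in the shallowest library.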
